A study of Mus musculus with 30 samples.

Results

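Colon tumors were compared with non-tumor colon in mice labelled Smox that had been given azoxymethane and dextran sulfate sodium (AOM-DSS). The comparison used 6 of the 30 libraries of the series, chosen by their labels alone: 3 from tumor tissue and 3 from non-tumor tissue. Azoxymethane is an alkylating carcinogen that acts on the colon, and dextran sulfate sodium in the drinking water injures the colon lining, so that tumors arise in inflamed mucosa. The mice were male C57BL/6 animals of 8 to 12 weeks from a house colony, carrying the Smox-/- alleles. They received 12.5 mg/kg azoxymethane into the peritoneum and then 3 cycles of 4% dextran sulfate sodium of 5 days each, from days 5, 26 and 47, with no spermidine. Both groups therefore shared the genotype, the carcinogen and the colitis schedule. Groups placed beside them were untreated Smox colon and tumor and non-tumor colon of wild-type (WT) mice that had AOM-DSS with 14 mM spermidine in the drinking water, each of 3 libraries. The labels give 3 mice per group, do not tie tumors to non-tumor samples by mouse, and name no tumor size, stage or position along the colon. Whole tissue RNA was sequenced, so fewer cells of a type and less RNA per cell cannot be told apart.

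Colon epithelium is renewed from LGR5-positive stem cells at the crypt base, which are held in that state by Wnt signals. A Wnt ligand bound to a Frizzled receptor and LRP5 or LRP6 stops the destruction complex (APC, AXIN, GSK3, CK1) from degrading beta-catenin, which then enters the nucleus and activates target genes with TCF and LEF factors. Many of the targets are themselves inhibitors of the pathway and form a feedback loop. Tumors of the AOM-DSS model are known for activating changes in beta-catenin, and Paneth cell products, which belong to the small intestine, are known Wnt-dependent genes. Smox encodes spermine oxidase, which makes spermidine from spermine with hydrogen peroxide as a by-product.

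A motif bound by TCF factors, CTTTGAT, was searched on both strands of RefSeq promoters (build GRCm38.p6, 250 bases before to 50 after the start). Among the Wnt feedback and Wnt target genes described below, 26 had a promoter in the set searched. Others, Notum and Apcdd1 among them, had none there and were not searched. Of the 26 genes, 2 held the motif in a promoter (7.69%), beside 1160 of all 27025 genes (4.29%). Counted by promoter this was 3 of 33 (9.09%, 95% Wilson interval 3.14 to 23.57%) against 1225 of 32851 (3.73%), where 2 of the 3 are overlapping promoters of Mmp7 that share 1 site. Read from the other strand the motif is ATCAAAG. With the longer form CCTTTGAT the shares of promoters were 3.03% and 1.08%, and with CTTTGAT on the plus strand alone 3.03% and 1.95%. The promoters of Sp5 and Mmp7, genes that rose in the tumors, held it. They are shown from the gene's strand, 5′ to 3′, with the motif in capitals: Sp5, a transcription factor, at chr2:70474788-70474887 (plus strand), and Mmp7, the protease matrilysin, at chr9:7692054-7692139 (plus strand).
Sp5: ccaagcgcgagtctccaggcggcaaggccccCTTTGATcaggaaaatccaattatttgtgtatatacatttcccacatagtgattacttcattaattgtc
Mmp7: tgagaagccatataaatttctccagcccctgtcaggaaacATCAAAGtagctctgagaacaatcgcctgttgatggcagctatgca

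The alpha-defensins, antimicrobial peptides of Paneth cells, are encoded in a cluster on chromosome 8, and their promoters were looked at after their expression values had been seen. Among 16 alpha-defensin promoters of RefSeq, 13 held the motif (81.2%), and of the 13 that belong to genes tested here 12 did (92.3%), beside 3.73% of all promoters. Many of these promoters are copies of each other: those of Defa21 and Defa22, of Defa2 and Defa20, of Defa23 and Defa31, of Defa36 and Defa37 and of Defa42 and Defa43 were identical over all 300 bases, so the promoters are not independent. Windows just before the start are printed to show the motif pair, which lies 40 bases apart in the first 3 and is absent from the last. They are Defa21 (chr8:21025410-21025509, plus strand), Defa2 (chr8:21378382-21378481, plus strand), Defa23 (chr8:21054905-21055004, plus strand) and Defa43 (chr8:21594501-21594600, minus strand). A match of letters is a description of the sequence and no measurement of binding.
Defa21: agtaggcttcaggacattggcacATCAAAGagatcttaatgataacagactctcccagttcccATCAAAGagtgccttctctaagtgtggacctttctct
Defa2: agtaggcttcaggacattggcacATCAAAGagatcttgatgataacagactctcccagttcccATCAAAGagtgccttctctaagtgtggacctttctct
Defa23: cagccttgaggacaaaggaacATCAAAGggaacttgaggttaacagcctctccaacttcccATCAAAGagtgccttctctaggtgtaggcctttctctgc
Defa43: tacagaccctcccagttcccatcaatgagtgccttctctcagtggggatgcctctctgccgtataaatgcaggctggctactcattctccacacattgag

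The gene named in the labels was looked at first. Smox stood at 57.7, 68.7 and 44.0 CPM (counts scaled to library size, with TMM factors) in tumor replicates 1, 2 and 3 and at 27.6, 26.1 and 35.8 CPM in the non-tumor replicates, and at 28.7, 36.2 and 27.4 CPM in untreated Smox colon. The tumor libraries lay above the non-tumor libraries without overlap (log2 fold change 0.93 ± 0.24, adjusted p = 0.0115; all such p-values come from edgeR's quasi-likelihood test with Benjamini-Hochberg adjustment over all genes tested, and ± beside a log2 fold change is its SE). Untreated WT colon held 26.7, 25.1 and 27.6 CPM, which overlapped the untreated libraries labelled Smox. In some other groups the libraries labelled Smox were lower without overlap: WT non-tumor colon after AOM-DSS held 48.2, 50.7 and 41.8 CPM, and with spermidine alone WT colon held 48.9, 49.4 and 43.7 CPM and colon labelled Smox 18.6, 26.7 and 22.8 CPM. With AOM-DSS and spermidine together non-tumor colon labelled Smox held 63.1, 23.2 and 35.01 CPM, and its WT counterpart 54.1, 47.5 and 46.6 CPM, with overlap. Counts per gene do not show which exons were transcribed, and the 6 libraries are named here by their labels. In WT spermidine tumors Smox was at 127, 123 and 169 CPM, above that non-tumor colon. Smox missed the threshold without tumor replicates 1 or 2 (adjusted p 0.0501 to 0.0685). Here and below 1 library was left out at a time, and the threshold is an adjusted p of 0.05.

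The labelled tissue was colon, and epithelial markers were abundant on both sides. Epcam, the epithelial adhesion molecule, was at 1855, 1714 and 2389 CPM in the tumors and 1886, 1994 and 2744 CPM in non-tumor colon (log2 fold change -0.15 ± 0.17, adjusted p = 0.525), and Krt8, a keratin of simple epithelia, at 4724, 4079.7 and 5341 and 5126, 4705 and 7388 CPM (log2 fold change -0.28 ± 0.21, adjusted p = 0.321). Vil1, the brush border protein villin, showed no call either (adjusted p = 0.204), while the mature colonocyte genes described below fell. Library totals of the 6 ran from 50706102 to 58822886 counts.

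Tumor replicate 3 stood apart from tumor replicates 1 and 2. Principal components were taken from the 1000 genes that varied most over the 30 libraries. On the first component (47.4% of the variance of those genes) tumor replicate 3 was at 43.0, against 101 and 107 for the other tumors. The WT spermidine tumors were at 92.7 to 111 and non-tumor Smox colon at -20.9 to -0.606. Correlations used all genes tested. The log2 CPM of tumor replicate 3 correlated with the 3 non-tumor libraries at Pearson r of 0.962, 0.944 and 0.962 and with tumor replicates 1 and 2 at 0.954 and 0.945, across 19558 genes that are not independent, while those 2 tumors correlated with each other at 0.985. In 83.7% of the genes called between the groups tumor replicate 3 lay nearer the non-tumor mean than both other tumors, and its median shift was 54.3% of theirs. Reads of the mitochondrial genome made up 2.57, 2.60 and 3.36% of tumor libraries and 4.52, 6.10 and 5.29% of non-tumor libraries. An untreated WT library (replicate 3) and a spermidine non-tumor library labelled Smox (replicate 1), which enter the model but not the comparison, also stand apart from their groups. Tumor replicate 3 was kept in every result unless its removal is named.

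**Figure D1:**
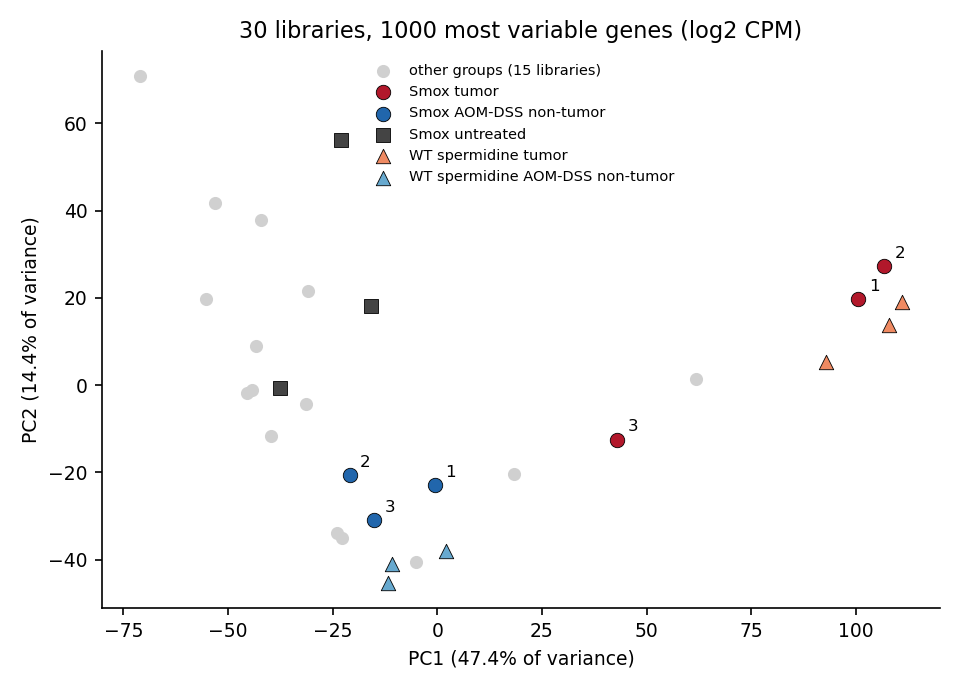
First 2 principal components of log2 CPM of the 1000 most variable genes in the 30 libraries, each point a library, with replicate numbers beside the 6 libraries compared. Tumor replicates 1 and 2 sit with the WT spermidine tumors at the right (101 and 107 on the first component), tumor replicate 3 lies between them and the non-tumor libraries at 43.0, and the 3 non-tumor libraries lie at -20.9 to -0.606.

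Of 19558 genes tested, 4820 (24.6%) differed between tumor and non-tumor colon: 2235 rose (11.4%) and 2585 fell (13.2%). The counts of every gene list below are to be read beside these shares. The median rise of a called gene was 2.19-fold and the median fall 2.94-fold, 690 rose and 1074 fell at least 4-fold, and the median log2 fold change of all genes was -0.01. Leaving out tumor replicate 3 raised the counts to 3073 and 3044, and leaving out tumor replicate 1 or 2 lowered them to 524 and 466 or to 446 and 592. Non-tumor libraries mattered too: without non-tumor replicate 2 the counts were 1096 and 1280, and without non-tumor replicate 3 they were 929 and 1564. A model of the 6 libraries alone called 1700 and 1387, and one without a filter on low counts 1622 and 1883.

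The 12 largest rises were taken among called genes that met a rule for level and whose groups did not overlap, and they belonged to several families. They held the Wnt ligand Wnt10a, the receptor Lgr6, a relative of the stem cell marker Lgr5, the growth factor Fgf3, the claudin Cldn6, the alpha-defensins Defa3 and Defa32, the Paneth cell lysozyme Lyz1, the keratins Krt6a and Krt6b and the proteases Habp2, Prss56 and Tmprss11g. Habp2 was at 36.6, 38.4 and 5.53 CPM in the tumors and 0.102, 0.0173 and 0 CPM in non-tumor colon (log2 fold change 9.25 ± 2.05, adjusted p = 0.00678). Lgr6 was at 16.6, 22.0 and 0.685 CPM against 0.0340, 0.0346 and 0.0431 CPM (log2 fold change 8.39 ± 1.98, adjusted p = 0.00793). In every one of the 12 genes tumor replicate 3 was the lowest tumor. Its gap to the highest non-tumor library was narrow in Tmprss11g (0.0334 against 0.0216 CPM), Fgf3 (0.117 against 0.102 CPM) and Prss56 (0.351 against 0.323 CPM). Fgf3 and Prss56 missed the threshold without tumor replicates 1 or 2 or non-tumor replicates 2 or 3 (adjusted p 0.0514 to 0.0812), Cldn6 without tumor replicate 2 (0.0685), and Defa3, Krt6a, Krt6b and Tmprss11g without tumor replicates 1 or 2 or non-tumor replicates 1, 2 or 3 (0.0646 to 0.0928). Defa32 did so without tumor replicate 2 or non-tumor replicate 3 (0.0508 to 0.0623), and Defa3 and Krt6b without a filter on low counts (0.0517 to 0.0534).

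The 12 largest falls, taken by the same rule, held 3 members of the list of mature colonocyte genes, Tmigd1, Aqp8 and Fabp2. The 12 were H2-T18, a non-classical MHC molecule of intestinal epithelium, the steroid enzymes Hsd3b3 and Hsd3b2, Apol10a, the amino acid transporter subunit Slc3a1, Cst6, the adhesion protein Tmigd1, the dipeptidase Dpep1, the water channel Aqp8, Prap1, the drug-metabolising Cyp2c65 and the fatty acid binding protein Fabp2. Hsd3b3 fell from 99.97, 81.2 and 88.1 CPM to 0.191, 0.323 and 1.04 CPM (log2 fold change -7.45 ± 1.15, adjusted p = 0.00205). Dpep1 fell from 154, 215 and 138 CPM to 2.14, 1.86 and 2.64 CPM (log2 fold change -6.25 ± 0.996, adjusted p = 0.00225), and here all 3 tumors were alike. Untreated Smox colon held 196 ± 62.0 CPM of Hsd3b3 and 133 ± 36.5 CPM of Dpep1 (mean ± SD, n = 3). Cst6 missed the threshold without tumor replicate 2 (adjusted p 0.0512), and Prap1 without tumor replicates 1 or 2 (0.0552 to 0.0576).

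Inhibitors of the Wnt pathway that Wnt signalling itself induces rose in the tumors. Of 18 such genes tested, 13 rose and none fell, beside 11.4% of all genes that rose, and their median log2 fold change was 2.85. Axin2, a scaffold of the destruction complex, was at 359.6, 438 and 72.0 CPM in the tumors and 19.98, 19.2 and 17.5 CPM in non-tumor colon (log2 fold change 3.94 ± 0.79, adjusted p = 0.00464). Notum, a secreted enzyme that inactivates Wnt ligands, was at 215, 489 and 12.5 against 3.36, 1.16 and 0.0647 CPM (log2 fold change 7.26 ± 1.88, adjusted p = 0.0115). Tumor replicates 1 and 2 were high in both genes, replicate 3 was intermediate, and no tumor overlapped a non-tumor library.

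Wif1, a secreted Wnt-binding protein, was at 287, 644 and 20.3 CPM in tumors and 5.56, 1.49 and 0.582 CPM in non-tumor colon (log2 fold change 6.95 ± 1.60, adjusted p = 0.00733). Apcdd1, a membrane inhibitor of the receptors, stood at 225, 397 and 8.67 and 4.86, 2.47 and 1.49 CPM (log2 fold change 6.16 ± 1.46, adjusted p = 0.00808), with replicate 3 closest to the non-tumor range. Nkd1, an inhibitor of Dishevelled, stood at 425, 779 and 28.9 and 14.0, 24.0 and 2.87 CPM (log2 fold change 4.91 ± 1.33, adjusted p = 0.0137). Its tumor replicate 3 was above the highest non-tumor library by a small margin. Sfrp2, a decoy receptor, differed from the others in that replicate 3 was the highest tumor, at 5.25, 8.31 and 16.4 CPM against 1.04, 1.11 and 0.560 CPM (log2 fold change 3.46 ± 0.99, adjusted p = 0.0172). Znrf3, a ligase that removes Frizzled receptors, also rose (log2 fold change 2.97 ± 0.63, adjusted p = 0.00548), as did its partner Rnf43 (log2 fold change 2.77 ± 0.59, adjusted p = 0.00553), which was named after its values were seen.

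The WT spermidine tumors held 394 ± 239 CPM of Notum against 0.169 ± 0.0766 CPM in their non-tumor colon, and 453 ± 139.8 CPM of Axin2 against 49.7 ± 14.8 CPM (mean ± SD, n = 3). Untreated Smox colon held 0.177 ± 0.105 CPM of Notum and 26.0 ± 1.29 CPM of Axin2, and Smox non-tumor colon 1.53 ± 1.68 and 18.9 ± 1.24 CPM. Without tumor replicate 3 the count of feedback inhibitors that rose was again 13, and without tumor replicate 2 it was 6. Notum missed the threshold without tumor replicate 2 (adjusted p 0.0513), Nkd1 without tumor replicate 2 or non-tumor replicate 3 (0.0562 to 0.0613), and Sfrp2 without tumor replicate 2 or non-tumor replicates 2 or 3 (0.0503 to 0.0675).

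**Figure D2:**
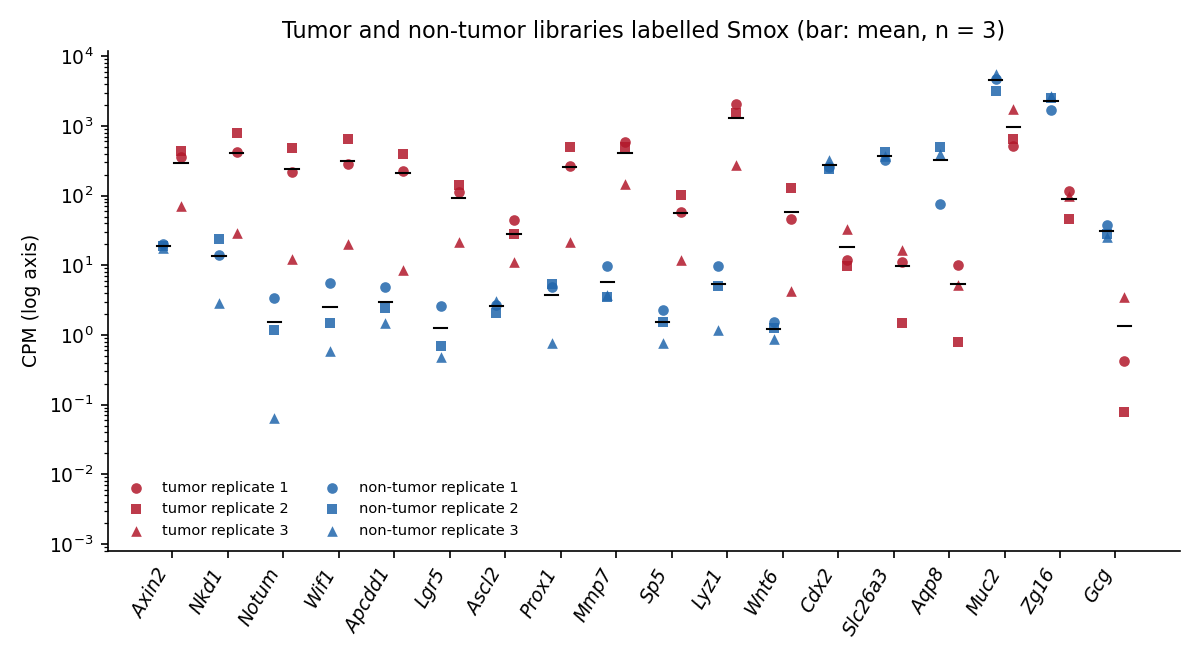
CPM (log axis) of 18 genes in each of the 3 tumor libraries (red) and 3 non-tumor libraries (blue) labelled Smox, with symbols for the replicate and a bar for the mean. The Wnt feedback genes, stem cell genes and Lyz1 at the left are higher in tumors, with tumor replicate 3 (triangle) lowest among tumors in most of them, and Cdx2, Slc26a3, Aqp8, Muc2, Zg16 and Gcg at the right are lower in tumors.

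The genes most like Notum across all 30 libraries were found by Pearson's correlation of log2 CPM, given as a description of libraries that share groups. The 8 highest were Notumos (r = 0.987), Defa3 (0.983), Defa2 (0.982), T, the brachyury factor (0.982), Defa5 (0.980), Habp2 (0.980), Ascl4 (0.980) and Defa23 (0.979). Notumos (chr11:120659157-120661815) overlaps Notum (chr11:120653788-120661175) on chromosome 11, and how strand was used in counting is not given in the sources used here, so reads of these neighbours cannot be told apart. Ascl4, a bHLH transcription factor, was at 24.5, 32.7 and 1.24 CPM in tumors and 0.459, 0.156 and 0.0431 CPM in non-tumor colon (log2 fold change 6.44 ± 1.48, adjusted p = 0.00732), with all 3 tumors above all 3 non-tumor libraries. T and Defa5 missed the threshold (adjusted p = 0.107 and 0.0625). Defa5 passed with the 6 libraries modelled alone (0.041) and without tumor replicate 3 (0.0448). T and Defa5 passed without the 2 other libraries that stand apart (0.0234 to 0.0258).

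Among 19 target genes of beta-catenin and TCF that act in growth and cell fate, 13 rose and none fell (median log2 fold change 1.63). Prox1, a homeobox factor of early colon tumors, was at 265, 498 and 21.3 CPM in tumors and 4.93, 5.39 and 0.776 CPM in non-tumor colon (log2 fold change 6.14 ± 1.504, adjusted p = 0.00903). Mmp7 was at 588, 499 and 147 against 9.77, 3.53 and 3.79 CPM (log2 fold change 6.17 ± 1.85, adjusted p = 0.0214), and Sp5 at 58.0, 101 and 11.8 against 2.29, 1.56 and 0.754 CPM (log2 fold change 5.21 ± 1.33, adjusted p = 0.011). Replicate 3 was the lowest tumor in all 3 genes and above every non-tumor library. The nuclear partners of beta-catenin that are themselves targets rose as well, Lef1 from 0.731, 0.346 and 0.474 to 23.6, 28.4 and 1.82 CPM (log2 fold change 5.11 ± 1.52, adjusted p = 0.0205) and Tcf7 from 5.88, 4.93 and 2.35 to 71.0, 87.5 and 17.6 CPM (log2 fold change 3.74 ± 0.95, adjusted p = 0.0107).

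Sox9, a factor of crypt base cells, moved less and more evenly: it was at 174, 217 and 161 CPM in tumors and 91.1, 73.9 and 92.3 CPM in non-tumor colon (log2 fold change 1.10 ± 0.28, adjusted p = 0.0109), with replicate 3 beside the other tumors. Myc, the growth regulator, was at 85.1, 77.1 and 67.1 and 40.2, 33.8 and 33.1 CPM (log2 fold change 1.10 ± 0.39, adjusted p = 0.0451), and Cd44, a hyaluronan receptor, at 141, 91.8 and 120.2 and 50.3, 36.3 and 26.97 CPM (log2 fold change 1.64 ± 0.55, adjusted p = 0.035). Ccnd1, which encodes cyclin D1 and is a textbook target, was at 252, 195 and 273 CPM against 198, 128 and 162 CPM, which overlapped and did not pass (log2 fold change 0.56 ± 0.32, adjusted p = 0.197). The count that rose was 13 without tumor replicate 3, 6 without tumor replicate 2 and 9 to 12 without any other single library. Mmp7, Lef1 and Cd44 missed the threshold without tumor replicates 1 or 2 or non-tumor replicates 2 or 3 (adjusted p 0.0594 to 0.118), Sp5, Tcf7 and Sox9 without tumor replicate 2 (0.0513 to 0.0591), and Myc without tumor replicates 1 or 2 or non-tumor replicates 1, 2 or 3 (0.0634 to 0.134). Myc and Cd44 did so without a filter on low counts (0.0559 to 0.0681).

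Among the upstream parts of the pathway more genes rose than fell. Of 37 ligands, receptors and core components, 11 rose and 4 fell (median log2 fold change 0.34). Of all genes 11.4% rose and 13.2% fell, so the falls were not above that share. The ligand Wnt10a was at 41.9, 76.9 and 2.52 CPM in tumors against 0.136, 0.104 and 0.0216 CPM (log2 fold change 8.78 ± 2.18, adjusted p = 0.00954), Wnt6 at 45.5, 127 and 4.32 against 1.55, 1.24 and 0.862 CPM (log2 fold change 5.59 ± 1.09, adjusted p = 0.00439) and Wnt3, the ligand that Paneth cells supply in the small intestine, at 7.51, 7.61 and 1.15 against 0.119, 0.104 and 0.0431 CPM (log2 fold change 5.88 ± 1.21, adjusted p = 0.00487). The receptor Fzd10 was at 8.45, 20.5 and 0.501 against 0.408, 0.225 and 0.0647 CPM (log2 fold change 5.37 ± 1.31, adjusted p = 0.00898). In these 4 genes tumor replicate 3 was well below the other tumors and above the non-tumor libraries.

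Core components showed small differences or none. Ctnnb1, which encodes beta-catenin, was at 1400.1, 1576 and 988 CPM in tumors and 861, 935 and 1052 CPM in non-tumor colon (log2 fold change 0.48 ± 0.16, adjusted p = 0.0345), and replicate 3 fell within the non-tumor range. Apc, the scaffold lost in most human colon tumors, was at 106, 129 and 107 and 107, 107 and 109 CPM (log2 fold change 0.08 ± 0.16, adjusted p = 0.743). Rspo3, a stromal ligand that strengthens Wnt signals and was named after its values were seen, was at 0.132, 0.108 and 2.15 CPM in tumors and 3.08, 6.91 and 1.38 CPM in non-tumor colon (adjusted p = 0.0686). Only replicate 3 of the tumors overlapped the non-tumor values of Rspo3. Fzd10 missed the threshold without tumor replicate 2 (adjusted p 0.0521), Ctnnb1 without tumor replicates 1 or 2 or non-tumor replicates 1 or 2 (0.093 to 0.191), and Ctnnb1 with the 6 libraries modelled alone (0.133). Ctnnb1 did so under RLE scaling (0.052). Rspo3 passed in DESeq2 (0.0298). Its log2 fold change was -2.25 with all libraries and -4.93 without tumor replicate 3, where it passed as well (adjusted p = 0.00159). The count of components that rose ranged from 4 (without tumor replicate 2) to 13 (without tumor replicate 3), and of those that fell from 1 (without tumor replicate 1 or 2) to 6 (without tumor replicate 3).

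Of 19 markers of intestinal stem cells, 12 rose and 1 fell, with a median log2 fold change of 1.49. The lists share members, so their counts are not separate results. Axin2 is also counted among the feedback inhibitors and Ascl2 among the Wnt target genes. Mmp7, a Wnt target gene, is also counted among the Paneth cell genes below. Lgr5, the R-spondin receptor that marks crypt base stem cells, was at 111, 140.2 and 21.7 CPM in tumors and 2.58, 0.691 and 0.474 CPM in non-tumor colon (log2 fold change 6.17 ± 1.36, adjusted p = 0.00619). Ascl2, the transcription factor that sets the stem cell state, was at 44.9, 28.5 and 11.1 against 2.65, 2.04 and 3.10 CPM (log2 fold change 3.44 ± 0.74, adjusted p = 0.00576). Tnfrsf19, a receptor of the same cells, was at 56.1, 58.2 and 5.59 against 1.02, 1.19 and 0.366 CPM (log2 fold change 5.53 ± 1.22, adjusted p = 0.0061). Lgr5 in untreated Smox colon was at 4.04 ± 1.09 CPM and in WT spermidine tumors at 88.2 ± 9.64 CPM (mean ± SD, n = 3). The marker that fell was Aqp4, a water channel of crypt cells, from 1019, 525 and 967 to 86.3, 42.4 and 234 CPM (log2 fold change -2.79 ± 0.67, adjusted p = 0.00833). Untreated Smox colon held 128 ± 80.9 CPM of Aqp4, within the range of the tumors. The number of stem cell markers that rose was 12 without tumor replicate 3 and 8 without tumor replicate 1 or 2. Aqp4 missed the threshold without tumor replicates 1 or 2 (adjusted p 0.0534 to 0.0555).

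Genes of Paneth cells, which line crypts of the small intestine and are scarce in mouse colon, rose in 15 of 18 tested and fell in none (median log2 fold change 6.99). The count was 16 without tumor replicate 3, 5 to 7 without any other single library and 7 without a filter on low counts. Lyz1, the Paneth cell lysozyme, was at 2045, 1547 and 272 CPM in tumors and 9.89, 4.96 and 1.19 CPM in non-tumor colon (log2 fold change 7.91 ± 2.01, adjusted p = 0.0107). Itln1, a lectin, was at 172, 138 and 17.5 against 2.84, 1.49 and 1.34 CPM (log2 fold change 5.85 ± 1.31, adjusted p = 0.00671), and Pnliprp2, a pancreatic lipase related enzyme, at 122, 729 and 5.69 against 2.63, 3.85 and 0.582 CPM (log2 fold change 6.91 ± 1.44, adjusted p = 0.00504). The summed level of all 27 alpha-defensin genes in the table was 336, 1273 and 63.5 CPM in the tumors and 4.81, 5.67 and 0.561 CPM in non-tumor colon. Tumor replicate 2 was the highest here, replicate 3 the lowest, and all 3 exceeded every non-tumor library.

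Of 21 alpha-defensin genes tested by symbol 17 rose. Defa24 was at 95.5, 183 and 15.8 CPM against 1.12, 0.501 and 0.108 CPM (log2 fold change 7.38 ± 1.99, adjusted p = 0.0145), and Defa34 at 3.83, 11.47 and 0.751 against 0, 0.0346 and 0 CPM (log2 fold change 8.56 ± 2.05, adjusted p = 0.0105). Defa22, whose promoter is a copy of the Defa21 sequence shown above, was at 10.1, 80.9 and 2.55 against 0.102, 0.432 and 0 CPM (log2 fold change 7.40 ± 2.27, adjusted p = 0.028). Defa2 was at 24.8, 128 and 5.39 against 0.510, 0.605 and 0 CPM (log2 fold change 7.12 ± 2.21, adjusted p = 0.0318). Near-identical copies in this cluster can exchange reads in the authors' counting, so single members are uncertain and the sum is the firmer value. WT spermidine tumors held a sum of 912, 299 and 187 CPM and untreated Smox colon 0.154 to 1.27 CPM. The count of 17 became 20 without tumor replicate 3, 4 without tumor replicate 1 or non-tumor replicate 1, 3 without non-tumor replicate 2 and 1 without tumor replicate 2 or non-tumor replicate 3. Defa24 missed the threshold without tumor replicate 2 or non-tumor replicates 2 or 3 (adjusted p 0.0556 to 0.0572), Defa22 and Defa2 without tumor replicates 1 or 2 or non-tumor replicates 1, 2 or 3 (0.0598 to 0.122), and Defa22 and Defa2 without a filter on low counts (0.0541 to 0.0659).

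Markers of small intestinal enterocytes did not follow the Paneth genes: of 16 tested, 1 rose and 5 fell, the rise being Anpep, a brush border peptidase (log2 fold change 1.63 ± 0.46, adjusted p = 0.017). Anpep missed the threshold without tumor replicates 1 or 2 or non-tumor replicates 1 or 2 (adjusted p 0.0566 to 0.126), and Anpep with the 6 libraries modelled alone (0.0788). Markers of attached pancreas and fat gave 1 rise, of the lipase Pnlip, and 3 falls in 9 tested. The enterocyte falls numbered 5 without tumor replicate 3, 1 without tumor replicate 2 or non-tumor replicate 2 and none without tumor replicate 1. The part of other tissue in the Paneth gene levels was not tested.

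Genes of regenerating or fetal-like epithelium rose in 7 of 24 tested and fell in none (median log2 fold change 1.19). Clu, the chaperone clusterin that marks revival stem cells, was at 277, 460.1 and 391 CPM in tumors and 45.0, 50.8 and 39.1 CPM in non-tumor colon (log2 fold change 3.06 ± 0.99, adjusted p = 0.0299). Tumor replicate 3 was not below the others in this gene. Krt7, a keratin of simple epithelia, was at 733, 587 and 528 against 239.9, 169.7 and 203 CPM (log2 fold change 1.59 ± 0.31, adjusted p = 0.00433) and F3, tissue factor, at 195, 183 and 209.9 against 48.9, 55.5 and 45.4 CPM (log2 fold change 1.97 ± 0.40, adjusted p = 0.00487). Ly6a, the SCA1 antigen of injured colon, was at 389, 297 and 990.4 CPM in tumors and 479, 418 and 1027 CPM in non-tumor colon, with replicate 3 highest on both sides and no call (adjusted p = 0.815). The count was 7 without tumor replicate 3 and 3 or 4 without any other single library, 13 with the 6 libraries modelled alone and 11 without the 2 other libraries that stand apart. Clu missed the threshold without tumor replicates 1 or 2 or non-tumor replicates 1, 2 or 3 (adjusted p 0.0672 to 0.0915), and Clu without a filter on low counts (0.0557).

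Genes of stratified epithelium, which marks the anorectal lining, rose in 15 of 32 tested and fell in 2 (median log2 fold change 4.20). The list also holds Krt7 and Krt18, keratins of simple epithelia, among those that rose. Krt5, a basal keratin, was at 124, 168 and 0.150 CPM in tumors and 0.170, 0.795 and 0.237 CPM in non-tumor colon (log2 fold change 7.90 ± 2.63, adjusted p = 0.0336), and Trp63, the p63 factor of squamous tissue, at 4.33, 7.44 and 0.200 against 0.0170, 0.0518 and 0.0216 CPM (log2 fold change 6.94 ± 2.29, adjusted p = 0.0324). Tumor replicates 1 and 2 held these genes, while in replicate 3 Krt5 was within the non-tumor range. Krt14 was at 199.6, 167 and 22.7 against 1.72, 2.71 and 0.841 CPM (log2 fold change 6.20 ± 2.01, adjusted p = 0.0301). Untreated Smox colon varied widely, with Krt5 at 0.119, 23.8 and 595 CPM, and WT spermidine tumors held 0.691, 0.0327 and 0.0154 CPM. Krt36, a hair keratin named after its values were seen, rose in all 3 tumors, 189.8, 138 and 51.3 against 5.10, 4.77 and 4.42 CPM (log2 fold change 4.73 ± 1.14, adjusted p = 0.00872). The mean log2 CPM of the list was 4.25, 4.43 and 2.07 in the tumors and 0.89, 1.05 and 0.91 in non-tumor colon, and the part of anorectal lining in these values was not tested. The count became 18 without tumor replicate 3, 3 to 5 without any other single library and 8 without a filter on low counts. Krt5, Krt14 and Trp63 missed the threshold without tumor replicates 1 or 2 or non-tumor replicates 1, 2 or 3 (adjusted p 0.0736 to 0.105), Krt5, Krt14 and Trp63 without a filter on low counts (0.0559 to 0.0637), and Krt5 with the 6 libraries modelled alone (0.0509).

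Of 33 cell cycle genes 8 rose and 1 fell (median log2 fold change 1.06), beside 11.4% and 13.2% of all genes. This count moved widely with the setting: 24 rose with the 6 libraries modelled alone, 18 without the 2 other libraries that stand apart, 14 in DESeq2 and 3 without a filter on low counts. Mcm2, a subunit of the replicative helicase, was at 131, 74.0 and 66.0 CPM in tumors and 37.8, 26.8 and 24.1 CPM in non-tumor colon (log2 fold change 1.61 ± 0.47, adjusted p = 0.0196), and Mcm7 at 166, 97.4 and 85.3 against 50.1, 42.6 and 34.5 CPM (log2 fold change 1.46 ± 0.46, adjusted p = 0.0275). All tumors were above all non-tumor libraries in both, and tumor replicate 1 was the highest. Mki67, the proliferation antigen, was at 219.7, 195 and 241 CPM against 172, 137 and 131 CPM and did not pass (log2 fold change 0.58 ± 0.36, adjusted p = 0.244), nor did Top2a, a topoisomerase of dividing cells (log2 fold change 1.33 ± 0.51, adjusted p = 0.0564). No cell cycle gene was called as risen without tumor replicate 1, 1 was without tumor replicate 2 or non-tumor replicates 2 or 3, 4 were without non-tumor replicate 1 and 9 were without tumor replicate 3.

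Genes of MYC and of ribosome production rose in 12 of 30 tested and fell in 2 (median log2 fold change 0.65), beside 11.4% of all genes that rose and 13.2% that fell. Mycl, a MYC relative, was at 93.4, 86.5 and 31.2 CPM in tumors and 17.9, 15.97 and 16.7 CPM in non-tumor colon (log2 fold change 2.06 ± 0.48, adjusted p = 0.00779). Polr1a, the large subunit of RNA polymerase I, was at 63.2, 45.4 and 38.0 against 29.9, 23.8 and 17.2 CPM (log2 fold change 1.05 ± 0.30, adjusted p = 0.0182), and Ncl, nucleolin, at 853, 634 and 612 against 445, 366 and 309.6 CPM (log2 fold change 0.91 ± 0.33, adjusted p = 0.0464). Ldha, lactate dehydrogenase A, fell from 1209, 1293 and 1475 to 801, 634 and 1001 CPM (log2 fold change -0.71 ± 0.20, adjusted p = 0.016). Rises numbered 13 without tumor replicate 3, 3 without non-tumor replicate 2, 1 without tumor replicate 1, tumor replicate 2 or non-tumor replicate 3, and 19 without the 2 other libraries that stand apart. Mcm2 and Mcm7 missed the threshold without tumor replicates 1 or 2 or non-tumor replicates 2 or 3 (adjusted p 0.0517 to 0.141), Polr1a and Ldha without tumor replicates 1 or 2 or non-tumor replicate 3 (0.0544 to 0.101), and Ncl without tumor replicates 1 or 2 or non-tumor replicates 1, 2 or 3 (0.0504 to 0.172). Ncl did so without a filter on low counts (0.0637), and Ldha with the 6 libraries modelled alone (0.0552). Mki67 and Top2a passed with the 6 libraries modelled alone (0.0118 to 0.0411). Top2a passed in DESeq2 (0.0287), with a filter of 1 CPM in 3 libraries (0.0464) and without the 2 other libraries that stand apart (0.0129).

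Of 35 genes of the p53 response and DNA repair, 11 rose and 3 fell (median log2 fold change 0.38), beside 11.4% of all genes that rose and 13.2% that fell. Brca2, of recombination repair, was at 14.8, 13.1 and 7.78 CPM in tumors and 4.52, 3.39 and 2.48 CPM in non-tumor colon (log2 fold change 1.78 ± 0.55, adjusted p = 0.0246), and Phlda3, a p53 target, at 26.7, 23.7 and 39.4 against 8.27, 7.67 and 4.83 CPM (log2 fold change 2.11 ± 0.60, adjusted p = 0.0176). Trp53 itself, named after its values were seen, was at 126, 102 and 66.7 against 48.7, 42.4 and 34.7 CPM (log2 fold change 1.23 ± 0.29, adjusted p = 0.00786). All tumors were above all non-tumor libraries in the 3 genes. The number that rose was 12 without tumor replicate 3, 5 without non-tumor replicate 2, 3 without tumor replicate 2 and 1 without tumor replicate 1 or non-tumor replicate 3. Brca2 missed the threshold without tumor replicates 1 or 2 or non-tumor replicates 2 or 3 (adjusted p 0.0706 to 0.0932), Phlda3 without tumor replicate 1 or non-tumor replicate 3 (0.0533 to 0.0694), and Trp53 without tumor replicate 1 (0.0513).

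Of 33 genes of polyamine metabolism, the pathway of spermine oxidase, 4 rose and 3 fell (median log2 fold change 0.16), a share near that of all genes. The counts were 5 and 3 without tumor replicate 3, 1 and 0 without tumor replicate 1, 0 and 0 without tumor replicate 2, and 2 or 3 and 1 without a non-tumor replicate. Odc1, ornithine decarboxylase, the first enzyme of synthesis, was at 231, 172 and 226 CPM in tumors and 270.1, 203 and 161 CPM in non-tumor colon (log2 fold change -0.01 ± 0.20, adjusted p = 0.975). Amd1, which supplies the aminopropyl donor, was at 155, 132 and 179.5 against 131, 108 and 115 CPM (log2 fold change 0.40 ± 0.21, adjusted p = 0.156), and Sat1, the acetyltransferase that starts breakdown, at 177, 181 and 317 against 219, 251 and 291 CPM (log2 fold change -0.17 ± 0.27, adjusted p = 0.668). None of these 3 genes passed the test. Paox, the other oxidase of polyamines, which acts on acetylated forms, fell from 12.6, 14.1 and 14.2 to 8.62, 7.45 and 11.8 CPM (log2 fold change -0.55 ± 0.19, adjusted p = 0.0394).

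Slc7a2, a carrier of arginine, the source of ornithine, was at 5.28, 9.61 and 2.91 CPM in tumors and 1.17, 1.30 and 0.690 CPM in non-tumor colon (log2 fold change 2.49 ± 0.76, adjusted p = 0.0227), and Atp13a2, a lysosomal polyamine exporter, rose by a smaller amount (log2 fold change 0.55 ± 0.19, adjusted p = 0.0369). Otc, which takes ornithine into the urea cycle, was at 0.308, 0.277 and 0.701 CPM in tumors against 3.21, 2.94 and 3.28 CPM (log2 fold change -2.87 ± 0.85, adjusted p = 0.0203), below 15.04 ± 4.42 CPM in untreated Smox colon (mean ± SD, n = 3). Paox and Slc7a2 missed the threshold without tumor replicates 1 or 2 or non-tumor replicates 1, 2 or 3 (adjusted p 0.0507 to 0.18), Atp13a2 without tumor replicates 1 or 2 or non-tumor replicates 2 or 3 (0.0814 to 0.263), and Otc without tumor replicates 1 or 2 (0.0893 to 0.098). Paox and Atp13a2 did so without a filter on low counts (0.052 to 0.0911), and Paox and Atp13a2 with the 6 libraries modelled alone (0.108 to 0.111).

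Genes of mature absorptive colonocytes fell in the tumors. Of 36 tested 23 fell and none rose, beside 13.2% of all genes that fell, with a median log2 fold change of -2.37. Slc26a3, the chloride-bicarbonate exchanger of the surface epithelium, was at 11.2, 1.49 and 16.6 CPM in tumors and 327, 416 and 368 CPM in non-tumor colon (log2 fold change -5.25 ± 1.07, adjusted p = 0.00487). Aqp8, a water channel, was at 9.93, 0.785 and 5.16 against 75.0, 496 and 391 CPM (log2 fold change -5.92 ± 1.30, adjusted p = 0.0061), and Car4, a membrane carbonic anhydrase, at 17.8, 1.99 and 3.41 against 215, 634 and 336 CPM (log2 fold change -5.67 ± 1.09, adjusted p = 0.00433). In these genes all 3 tumors, replicate 3 included, lay far below every non-tumor library.

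Car1, a cytosolic carbonic anhydrase of colon, was at 59.8, 22.3 and 64.9 CPM in tumors and 1084, 497 and 565 CPM in non-tumor colon (log2 fold change -3.87 ± 0.92, adjusted p = 0.00833), while untreated Smox colon held 9976 ± 3794 CPM (mean ± SD, n = 3). Tmigd1 fell from 26.3, 79.1 and 37.6 to 0.425, 0.431 and 0.952 CPM (log2 fold change -6.31 ± 1.16, adjusted p = 0.0038) and Fabp2, which binds fatty acids, from 121, 87.2 and 74.9 to 0.616, 0.785 and 3.67 CPM (log2 fold change -5.81 ± 1.24, adjusted p = 0.00553). Krt20, a keratin of surface cells, was at 346, 312 and 435 against 603, 821 and 1566 CPM without passing (adjusted p = 0.0511). The count of falls was 22 without tumor replicate 3 and 14 without tumor replicate 1 or 2. Car1 missed the threshold without tumor replicate 2 (adjusted p 0.0539). Krt20 passed without non-tumor replicate 1 (0.0493), with the 6 libraries modelled alone (0.0463), in DESeq2 (0.025), with a filter of 1 CPM in 3 libraries (0.0476) and without the 2 other libraries that stand apart (0.0273).

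Of 28 transcription factors and structural genes of intestinal epithelium, 7 fell and 3 rose, beside 13.2% of all genes that fell and 11.4% that rose. The share of this list that rose was near that of all genes. Cdx2, the homeobox factor that sets intestinal fate, was at 12.0, 9.68 and 33.5 CPM in tumors and 261, 244 and 325 CPM in non-tumor colon (log2 fold change -3.91 ± 0.79, adjusted p = 0.00487), with no overlap and replicate 3 the highest tumor. Untreated Smox colon held 253 ± 32.9 CPM of Cdx2, and the WT spermidine groups 17.3 ± 3.54 CPM in tumors and 66.3 ± 12.1 CPM in non-tumor colon (mean ± SD, n = 3). Klf4, a factor of terminal differentiation, fell from 512, 650.5 and 1000.2 to 196, 215 and 283 CPM (log2 fold change -1.64 ± 0.39, adjusted p = 0.00798). Gata5 rose, from 2.29, 1.59 and 1.40 to 60.1, 52.4 and 8.42 CPM (log2 fold change 4.51 ± 1.25, adjusted p = 0.0156). Falls numbered 8 without tumor replicate 3, 3 without non-tumor replicate 3, 2 without tumor replicate 2 and 1 without tumor replicate 1. Klf4 missed the threshold without tumor replicate 1 (adjusted p 0.0536), and Gata5 without tumor replicates 1 or 2 or non-tumor replicates 2 or 3 (0.0551 to 0.0612).

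Among genes that mark position along the gut, the end of the HoxD cluster rose. Of 21 position genes 5 rose and 4 fell, beside 11.4% of all genes that rose and 13.2% that fell. The 5 that rose were the neighbours Hoxd9, Hoxd10, Hoxd11, Hoxd12 and Hoxd13 on chromosome 2, which were called in every fit with 1 library left out. Hoxd13, a factor of the hindgut end, was at 181, 139.9 and 201 CPM in tumors and 3.08, 5.39 and 2.31 CPM in non-tumor colon (log2 fold change 5.59 ± 1.35, adjusted p = 0.00874), and Hoxd11 at 28.5, 27.1 and 37.5 against 0.323, 1.07 and 0.517 CPM (log2 fold change 5.60 ± 1.05, adjusted p = 0.00406). Tumor replicate 3 was the highest tumor in both. The level that stood apart was that of the non-tumor libraries: Hoxd13 was at 131, 105 and 74.7 CPM in untreated Smox colon, 207, 182 and 213 CPM in WT spermidine non-tumor colon and 157, 197 and 168 CPM in WT spermidine tumors. Where along the colon each sample was taken is not given by the labels, and its part in these values was not tested.

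Goblet cell genes fell in 8 of 24 tested and rose in 1 (median log2 fold change -0.94), beside 13.2% of all genes that fell and 11.4% that rose. Muc2, the gel-forming mucin, was at 508, 658 and 1738 CPM in tumors and 4787, 3215 and 5512 CPM in non-tumor colon (log2 fold change -2.22 ± 0.77, adjusted p = 0.0395). Zg16, a lectin of mucus, was at 118, 46.3 and 99.6 against 1713, 2477 and 2656 CPM (log2 fold change -4.70 ± 0.71, adjusted p = 0.00173), and Clca1, a mucus protease, at 145, 46.9 and 58.1 against 716, 1058 and 1331 CPM (log2 fold change -3.63 ± 0.79, adjusted p = 0.00604). Replicate 3 was close to the other tumors in Zg16 and Clca1 and higher in Muc2. The gene that rose was Muc6, a gastric type mucin, at 9.28, 33.8 and 0.0668 against 0.731, 0.432 and 0.172 CPM (log2 fold change 5.00 ± 1.56, adjusted p = 0.0256), where replicate 3 was below all non-tumor libraries. Falls numbered 12 without tumor replicate 3, 2 without tumor replicate 1 or 2, 4 to 6 without a non-tumor replicate and 5 without a filter on low counts. Muc2 and Muc6 missed the threshold without tumor replicates 1 or 2 or non-tumor replicates 1, 2 or 3 (adjusted p 0.051 to 0.165), Muc2 without a filter on low counts (0.0728), and Muc6 with the 6 libraries modelled alone (0.0869).

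Enteroendocrine genes fell in 7 of 24 tested and rose in 1, beside 13.2% of all genes that fell and 11.4% that rose. Falls numbered 10 without tumor replicate 3, 2 without tumor replicate 1, 3 without tumor replicate 2 or non-tumor replicate 2, 4 without a filter on low counts and 3 with the 6 libraries modelled alone. Gcg, which encodes the precursor of glucagon-like peptides, was at 0.425, 0.0770 and 3.49 CPM in tumors and 38.4, 28.1 and 25.7 CPM in non-tumor colon (log2 fold change -4.54 ± 1.11, adjusted p = 0.00898), and Syp, synaptophysin, at 0.983, 1.14 and 3.12 against 8.17, 16.2 and 8.06 CPM (log2 fold change -2.63 ± 0.54, adjusted p = 0.00501). Isl1, a LIM homeobox factor, rose from 0.816, 0.916 and 0.884 to 33.5, 19.5 and 1.84 CPM (log2 fold change 4.39 ± 0.80, adjusted p = 0.0038). Of 15 tuft cell markers 3 rose and 1 fell, beside 11.4% of all genes that rose and 13.2% that fell. Most tuft cell markers went the other way, 10 being lower and 5 higher in the tumors (median log2 fold change -0.56). Rises numbered 1 without tumor replicate 1, tumor replicate 2 or non-tumor replicate 3. Among the 3 rises was Avil, the actin-binding advillin, at 70.6, 60.5 and 19.4 against 10.7, 8.17 and 7.20 CPM (log2 fold change 2.53 ± 0.74, adjusted p = 0.0192). Gcg missed the threshold without tumor replicate 1 (adjusted p 0.0583), and Avil without tumor replicates 1 or 2 or non-tumor replicates 2 or 3 (0.0649 to 0.0826).

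Respiratory chain genes fell together by small amounts. Of 35 nuclear-encoded genes of oxidative phosphorylation 32 fell and none rose, beside 13.2% of all genes that fell, with a median log2 fold change of -0.80. Cox5b, of cytochrome c oxidase, was at 172, 152 and 243 CPM in tumors and 366, 349.5 and 454 CPM in non-tumor colon (log2 fold change -1.04 ± 0.23, adjusted p = 0.00637), and Uqcrb, of complex III, at 82.2, 72.2 and 114 against 162, 194 and 219 CPM (log2 fold change -1.09 ± 0.25, adjusted p = 0.00737). Ppargc1b, a coactivator of mitochondrial genes, was at 7.95, 4.97 and 13.7 against 26.98, 27.3 and 34.0 CPM (log2 fold change -1.73 ± 0.36, adjusted p = 0.00497). The tumors were below the non-tumor libraries in each, with replicate 3 the highest of them. Of 13 protein genes of the mitochondrial genome all 13 were lower in the tumors, of which 2 fell and 11 were not called. With the 6 libraries modelled alone, and without the 2 other libraries that stand apart, 10 fell in each case, and with 1 library left out from none to 4 did, the most without tumor replicate 3. Without tumor replicate 3 the nuclear count was again 32, without non-tumor replicate 3 it was 19, and without tumor replicate 1 or 2 it was 13 or 9.

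Genes for uptake and oxidation of butyrate and other fatty acids, the main fuel of colonocytes, fell in 21 of 29 tested and rose in none (median log2 fold change -0.96). Slc5a8, a butyrate importer, was at 12.3, 20.8 and 176 CPM in tumors and 325, 239 and 504 CPM in non-tumor colon (log2 fold change -2.35 ± 0.83, adjusted p = 0.043). Acads, which starts oxidation of short chains, was at 82.2, 77.8 and 88.9 against 260.3, 204 and 261 CPM (log2 fold change -1.54 ± 0.30, adjusted p = 0.00433), and Hadh, a later enzyme of the spiral, at 123, 116 and 172 against 288, 274 and 312 CPM (log2 fold change -1.09 ± 0.24, adjusted p = 0.00586). Acads was alike in the 3 tumors, while Slc5a8 was far higher in replicate 3. Glycolytic and hypoxia genes fell in 9 of 28 and rose in none: Hk1, a hexokinase, was at 127, 119 and 214 against 317, 318 and 359.9 CPM (log2 fold change -1.11 ± 0.20, adjusted p = 0.0038) and Car9, a hypoxia-induced carbonic anhydrase, at 42.8, 39.3 and 71.4 against 119, 127 and 118 CPM (log2 fold change -1.24 ± 0.26, adjusted p = 0.00553). Fatty acid and sterol synthesis gave 4 rises and no fall in 26 tested, beside 11.4% of all genes that rose. The median log2 fold change of this list was -0.01. Among the rises were Srebf1, a transcription factor of this synthesis, at 319, 292 and 297 against 142, 134 and 152 CPM (log2 fold change 1.08 ± 0.26, adjusted p = 0.00872) and Scd1, a desaturase, at 124, 124 and 142 against 58.1, 42.9 and 54.9 CPM (log2 fold change 1.32 ± 0.32, adjusted p = 0.00901). Falls of butyrate and fatty acid genes numbered 20 without tumor replicate 3, 8 without tumor replicate 2 and 6 without tumor replicate 1. Falls of glycolytic and hypoxia genes numbered 10 without tumor replicate 3 and 3 without tumor replicate 1, tumor replicate 2 or non-tumor replicate 3, and 2 synthesis genes fell without tumor replicate 3. Uqcrb missed the threshold without tumor replicate 2 (adjusted p 0.0513), Slc5a8 without tumor replicates 1 or 2 or non-tumor replicates 1, 2 or 3 (0.0644 to 0.171), and Slc5a8 without a filter on low counts (0.0851). Slc5a8 did so with the 6 libraries modelled alone (0.138).

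Drug and toxin handling was lower in the tumors: of 37 genes 25 fell and 4 rose (median log2 fold change -2.08). Sult1a1, a sulfotransferase, was at 5.15, 4.20 and 11.4 CPM in tumors and 118, 92.8 and 84.5 CPM in non-tumor colon (log2 fold change -3.83 ± 0.77, adjusted p = 0.00487), and Cyp4f14, a cytochrome P450, at 5.76, 3.94 and 6.61 against 77.4, 181 and 107 CPM (log2 fold change -4.48 ± 0.75, adjusted p = 0.00253). Ugt1a6a, a glucuronosyltransferase, was at 2.46, 3.71 and 13.2 against 92.0, 83.2 and 97.5 CPM (log2 fold change -3.82 ± 0.93, adjusted p = 0.00888). Its 3 tumors lay below the non-tumor libraries, and untreated Smox colon held 228 ± 69.9 CPM (mean ± SD, n = 3). Among antioxidant enzymes 8 of 33 fell and 2 rose, with Prdx6, a peroxiredoxin, at 483, 558 and 789.6 against 1370.4, 1694 and 2216 CPM (log2 fold change -1.53 ± 0.45, adjusted p = 0.0194) and Aldh1a1, a retinal dehydrogenase, at 3.12, 3.94 and 7.16 against 52.6, 50.7 and 35.6 CPM (log2 fold change -3.29 ± 0.88, adjusted p = 0.013). Its relative Aldh1a3 rose, at 199.6, 224 and 339 against 50.3, 49.1 and 13.6 CPM (log2 fold change 2.75 ± 0.99, adjusted p = 0.046). The xenobiotic falls numbered 25 without tumor replicate 3 and 8 without tumor replicate 1 or 2. The antioxidant falls numbered 9 without tumor replicate 3, 4 without non-tumor replicate 3 and 2 without tumor replicate 1 or 2, and there was 1 rise without tumor replicate 3 and none without any other single library. Ugt1a6a and Aldh1a1 missed the threshold without tumor replicates 1 or 2 (adjusted p 0.0551 to 0.0734), Prdx6 without tumor replicates 1 or 2 or non-tumor replicate 3 (0.0777 to 0.1), and Aldh1a3 without tumor replicates 1, 2 or 3 or non-tumor replicates 1, 2 or 3 (0.0731 to 0.149). Aldh1a3 did so without a filter on low counts (0.0824).

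Inflammatory genes gave few calls between tumor and non-tumor colon of these colitic mice. Of 29 neutrophil and acute-phase genes 1 rose and 2 fell, and of 42 chemokines and receptors none rose and 2 fell, beside 24.6% of all genes called. The chemokine falls numbered 8 without tumor replicate 3 and none or 1 without any other single library. S100a8, a calprotectin subunit of neutrophils, was at 40.8, 28.5 and 40.6 CPM in tumors and 65.9, 11.2 and 18.1 CPM in non-tumor colon (adjusted p = 0.932), and S100a9, its partner, at 62.4, 39.0 and 58.4 against 84.4, 12.2 and 18.5 CPM (adjusted p = 0.833). Non-tumor replicate 1 was the highest of the 6 in both. It also held most Il11, an epithelial repair cytokine (9.24, 18.8 and 15.1 CPM in tumors, 32.3, 1.28 and 0.841 CPM in non-tumor colon, adjusted p = 0.882), and most Ptgs2, which encodes cyclooxygenase 2 (8.76, 40.2 and 13.5 and 75.4, 3.77 and 4.51 CPM, adjusted p = 0.796).

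Cxcl5, a neutrophil attractant, was at 99.6, 95.6 and 120.0 CPM in the tumors and 40.5, 7.71 and 19.5 CPM in non-tumor colon, without overlap but also without a call (adjusted p = 0.191). Il1b was at 9.65, 15.7 and 33.3 against 35.1, 4.93 and 18.6 CPM (adjusted p = 1). Saa1, an acute-phase protein of colon epithelium, fell from 313, 1829 and 973 to 126, 103 and 77.2 CPM (log2 fold change -3.35 ± 0.62, adjusted p = 0.00402), and Il23a, a subunit of interleukin 23, rose from 0.374, 0.328 and 0.323 to 5.52, 9.44 and 0.935 CPM (log2 fold change 3.94 ± 1.03, adjusted p = 0.0119), though not without tumor replicate 2 (adjusted p = 0.0602). Cxcl5 passed with the 6 libraries modelled alone (0.0425).

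The interferon and antigen presentation genes showed no call in 36 tested, beside 24.6% of all genes. Cd74, the invariant chain of MHC class II, was at 77.8, 109 and 1604 CPM in tumors and 105, 157 and 2071 CPM in non-tumor colon (adjusted p = 0.834). Replicate 3 was far above the others on both sides. Without tumor replicate 3, 7 of the 36 fell. Nothing in the labels links the samples that carry the same number.

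B lymphocyte and plasma cell genes fell in 10 of 29 tested and rose in 1 (median log2 fold change -3.14), beside 13.2% of all genes that fell and 11.4% that rose. Igha, the constant region of IgA, was at 83.4, 49.9 and 475 CPM in tumors and 1740.4, 3108 and 1506 CPM in non-tumor colon (log2 fold change -3.38 ± 1.02, adjusted p = 0.0217), and Jchain, which joins IgA subunits, at 13.4, 9.08 and 102 against 295, 484 and 316 CPM (log2 fold change -3.14 ± 0.90, adjusted p = 0.0176). Tumor replicates 1 and 2 were lowest and replicate 3 was intermediate. The gene that rose, Sdc1, encodes syndecan-1, which epithelium also makes (log2 fold change 0.57 ± 0.18, adjusted p = 0.0278). Of 29 T and NK cell genes 1 fell, of 30 macrophage and dendritic cell genes 4 fell, and none of either rose (3 and 5 falls without tumor replicate 3). The falls of these 2 lists were below or near the 13.2% of all genes that fell. The B and plasma cell falls numbered 17 without tumor replicate 3, 1 without non-tumor replicate 2, none without tumor replicate 1 or 2, and 6 with the 6 libraries modelled alone. Igha and Jchain missed the threshold without tumor replicates 1 or 2 or non-tumor replicate 2 (adjusted p 0.0513 to 0.108), Sdc1 without tumor replicates 1 or 2 or non-tumor replicates 2 or 3 (0.0657 to 0.107), and Igha and Jchain with the 6 libraries modelled alone (0.05 to 0.0638).

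Beside non-tumor colon labelled Smox, nerve genes were lower in all 3 tumors, and muscle genes in tumor replicates 1 and 2. Of 20 smooth muscle genes 5 fell and none rose (median log2 fold change -2.13), and of 24 enteric neuron and glia genes 17 fell and 1 rose (median log2 fold change -2.40). The mean log2 CPM of the smooth muscle list was 1.43, 1.76 and 4.34 in the tumors and 4.39, 6.14 and 3.93 in non-tumor colon, and that of the neuron and glia list -0.97, -0.31 and 1.32 and 2.60, 3.68 and 2.14. For the neuron and glia list untreated Smox colon held 2.43, 1.11 and 1.34. WT spermidine non-tumor colon held 0.15, 1.55 and 0.73 for that list. Tumor replicate 3 lay within the range of both of these groups. Myh11, smooth muscle myosin, was at 7.45, 14.6 and 152 CPM in tumors and 218, 985 and 144 CPM in non-tumor colon (log2 fold change -2.96 ± 1.07, adjusted p = 0.0474), and Des, desmin, at 1.61, 2.69 and 169 against 151, 669 and 171 CPM (adjusted p = 0.108). Gfap, of enteric glia, was at 0.0147, 0.108 and 0.801 against 5.17, 18.7 and 2.72 CPM (log2 fold change -4.86 ± 1.08, adjusted p = 0.00657), and Elavl4, an RNA-binding protein of neurons, at 0.161, 0.277 and 1.32 against 5.67, 10.97 and 4.12 CPM (log2 fold change -3.56 ± 0.81, adjusted p = 0.00704). Non-tumor replicate 2 was the highest library in all 4, and tumor replicate 3 overlapped the non-tumor values of Myh11 and Des. How much muscle layer each sample held was not measured, and its part in other results was not tested. Smooth muscle falls numbered 15 without tumor replicate 3 and none without tumor replicate 1, tumor replicate 2 or non-tumor replicate 2. They numbered 14 in DESeq2, 9 without the 2 other libraries that stand apart, 2 without a filter on low counts and none with the 6 libraries modelled alone. Neuron and glia falls numbered 17 without tumor replicate 3, 7 without non-tumor replicate 2 and 3 or 2 without tumor replicate 1 or 2, and 6 with the 6 libraries modelled alone. Myh11 missed the threshold without tumor replicates 1 or 2 or non-tumor replicates 1, 2 or 3 (adjusted p 0.053 to 0.284), Myh11 without a filter on low counts (0.0946), and Myh11 and Gfap with the 6 libraries modelled alone (0.0566 to 0.151). Des passed in DESeq2 (0.0451), and its log2 fold change of -2.51 became -7.23 without tumor replicate 3, where it also passed (adjusted p = 0.00067).

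Of 38 collagen and matrix genes 4 rose and 3 fell, beside 11.4% of all genes that rose and 13.2% that fell. Col1a1, of fibrillar collagen, was at 179, 148 and 186 CPM in tumors and 157, 144 and 54.9 CPM in non-tumor colon (adjusted p = 0.627). Thbs2, a matrix regulator, was at 216, 172 and 32.8 against 9.94, 26.0 and 2.29 CPM (log2 fold change 3.46 ± 1.18, adjusted p = 0.0377). Mmp14, a membrane protease, was at 324, 331 and 189 against 141, 105 and 99.8 CPM (log2 fold change 1.29 ± 0.36, adjusted p = 0.0158). In both genes all tumors exceeded all non-tumor libraries. Grem1, the BMP antagonist of crypt fibroblasts, fell from 174, 373 and 110.3 to 14.1, 13.2 and 75.2 CPM (log2 fold change -2.68 ± 0.97, adjusted p = 0.0461) in a list of 31 fibroblast markers in which 2 rose and 5 fell. Of 36 proteases and inhibitors 3 rose and 1 fell, and of 24 endothelial genes 2 rose and none fell. Among these rises were Mmp7 of the proteases and Prox1 of the endothelial list, both counted above as Wnt target genes. Of the 24 endothelial genes 10 were higher and 14 lower in the tumors. Without tumor replicate 3 the rises and falls were 4 and 4 of collagen and matrix genes, 3 and 7 of fibroblast markers, 4 and 1 of proteases and inhibitors and 3 and 0 of endothelial genes. Collagen and matrix rises numbered none without tumor replicate 1, tumor replicate 2 or non-tumor replicates 1 or 3, and fibroblast falls 2 without tumor replicate 1, tumor replicate 2 or non-tumor replicate 2. Thbs2 missed the threshold without tumor replicates 1 or 2 or non-tumor replicates 1 or 3 (adjusted p 0.0921 to 0.125), Mmp14 without tumor replicates 1 or 2 or non-tumor replicates 2 or 3 (0.052 to 0.0703), and Grem1 without tumor replicates 1 or 2 or non-tumor replicates 1, 2 or 3 (0.0604 to 0.179). Thbs2 and Grem1 did so without a filter on low counts (0.0673 to 0.0914), and Thbs2 and Grem1 with the 6 libraries modelled alone (0.0589 to 0.0669).

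**Figure D3:**
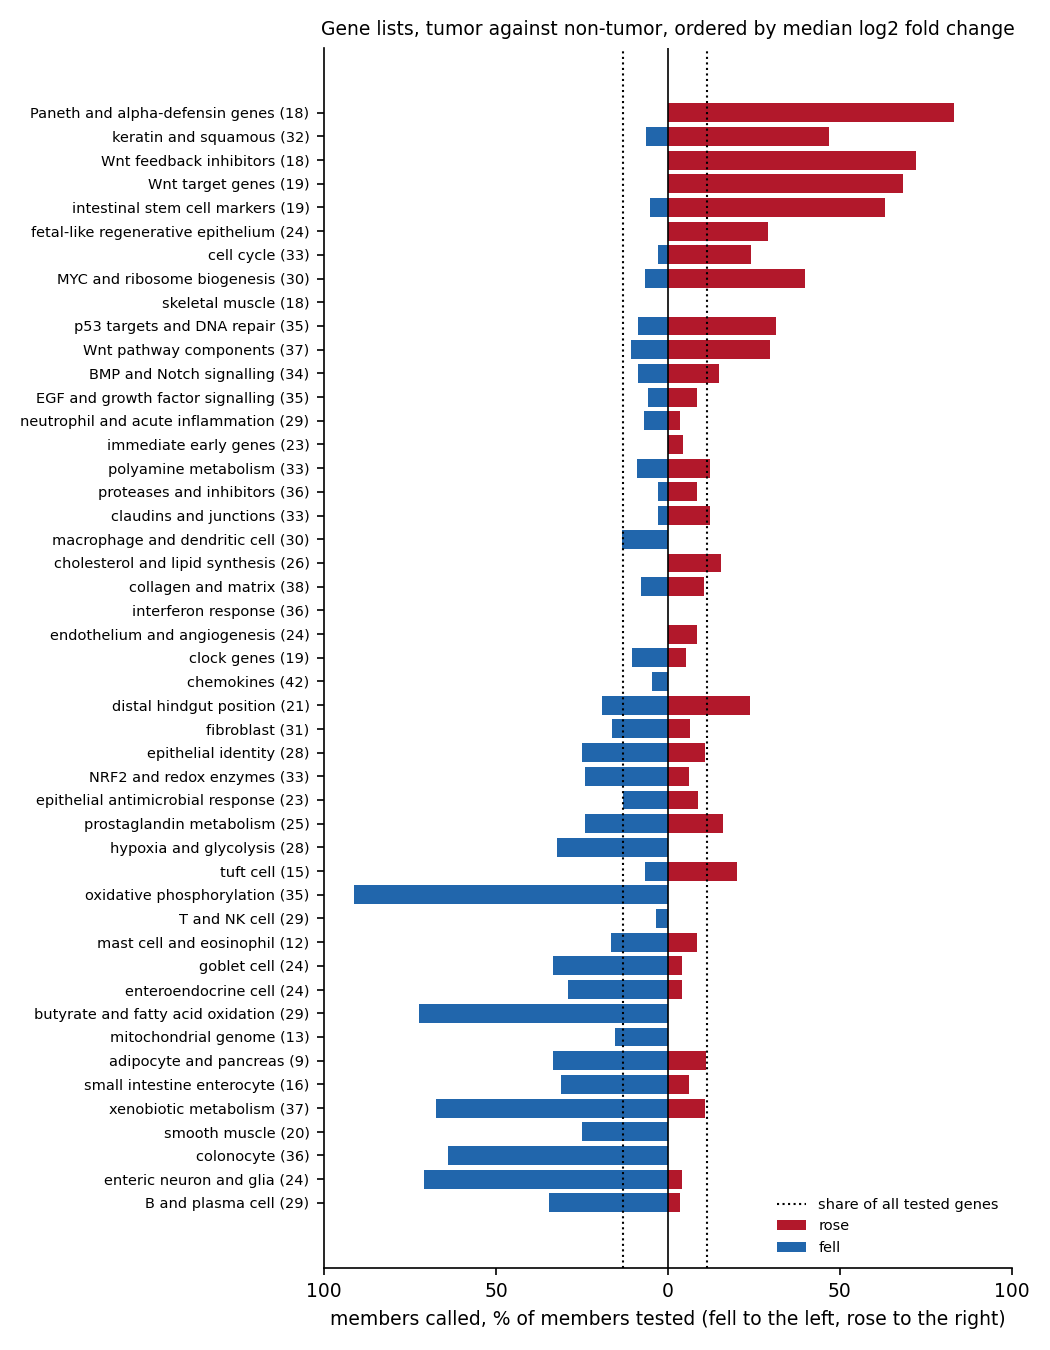
Share of tested members of each gene list (number tested in brackets) that rose to the right and fell to the left, for lists with at least 9 tested members, with dotted lines at the share of all tested genes (11.4% rose, 13.2% fell). Paneth, Wnt and stem cell lists reach farthest to the right, and oxidative phosphorylation, butyrate and fatty acid oxidation, neuron and glia, xenobiotic and colonocyte lists farthest to the left.

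Genes of other signals and of cell junctions changed in both directions. Their counts stand beside 11.4% of all genes that rose and 13.2% that fell. The counts of BMP and Notch, EGF and junction genes were near or below these shares. Of 34 BMP and Notch genes 5 rose and 3 fell: the receptor Notch1 was at 106, 116 and 47.4 CPM in tumors and 25.5, 22.1 and 23.5 CPM in non-tumor colon (log2 fold change 1.92 ± 0.41, adjusted p = 0.00559), and the growth factor Bmp3 at 2.64, 2.93 and 6.85 against 23.5, 41.8 and 7.80 CPM (log2 fold change -2.56 ± 0.60, adjusted p = 0.00784). Of 35 EGF and growth factor genes 3 rose and 2 fell, among them Dusp4, a phosphatase that ERK signalling induces, at 59.6, 65.2 and 30.1 against 11.52, 8.12 and 6.45 CPM (log2 fold change 2.57 ± 0.56, adjusted p = 0.00596). Of 25 prostaglandin genes 4 rose and 6 fell. These counts were 4 and 6 without tumor replicate 3, 1 and 1 without tumor replicate 1, 0 and 1 without tumor replicate 2, 1 or 2 and 2 or 3 without a non-tumor replicate, and 1 rise with the 6 libraries modelled alone. Hpgd, which degrades prostaglandin E2, was at 22.8, 30.4 and 24.0 against 89.9, 127 and 91.0 CPM (log2 fold change -2.00 ± 0.39, adjusted p = 0.00441), with all 3 tumors alike and below every non-tumor library. Of 33 junction genes 4 rose and 1 fell, with Cldn4 at 385, 538 and 284 against 48.9, 80.1 and 95.8 CPM (log2 fold change 2.42 ± 0.56, adjusted p = 0.00735) and Cldn15 at 14.8, 11.01 and 38.8 against 141, 88.3 and 152 CPM (log2 fold change -2.56 ± 0.67, adjusted p = 0.0122). Bmp3 and Cldn15 missed the threshold without tumor replicates 1 or 2 (adjusted p 0.0513 to 0.0728). The rises and falls without tumor replicate 3 were 7 and 7 of BMP and Notch genes, 5 and 3 of EGF and growth factor genes and 5 and 2 of junction genes. Without tumor replicate 1 they were 2 and 0 in each of the 3 lists, and without tumor replicate 2 they were 2, 1 and 2 rises with no fall. With the 6 libraries modelled alone 1 BMP and Notch gene rose.

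Other lists are given as counts, beside 24.6% of all genes called. Of 23 antimicrobial genes 2 rose and 3 fell, of 12 mast cell and eosinophil genes 1 rose and 2 fell, of 23 immediate early genes 1 rose and of 19 clock genes 1 rose and 2 fell. None of 18 skeletal muscle and none of 5 haemoglobin genes was called. The antimicrobial falls numbered 7 without tumor replicate 3 and none without tumor replicate 1 or 2, and 5 antimicrobial genes rose with the 6 libraries modelled alone.

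**Figure D4:**
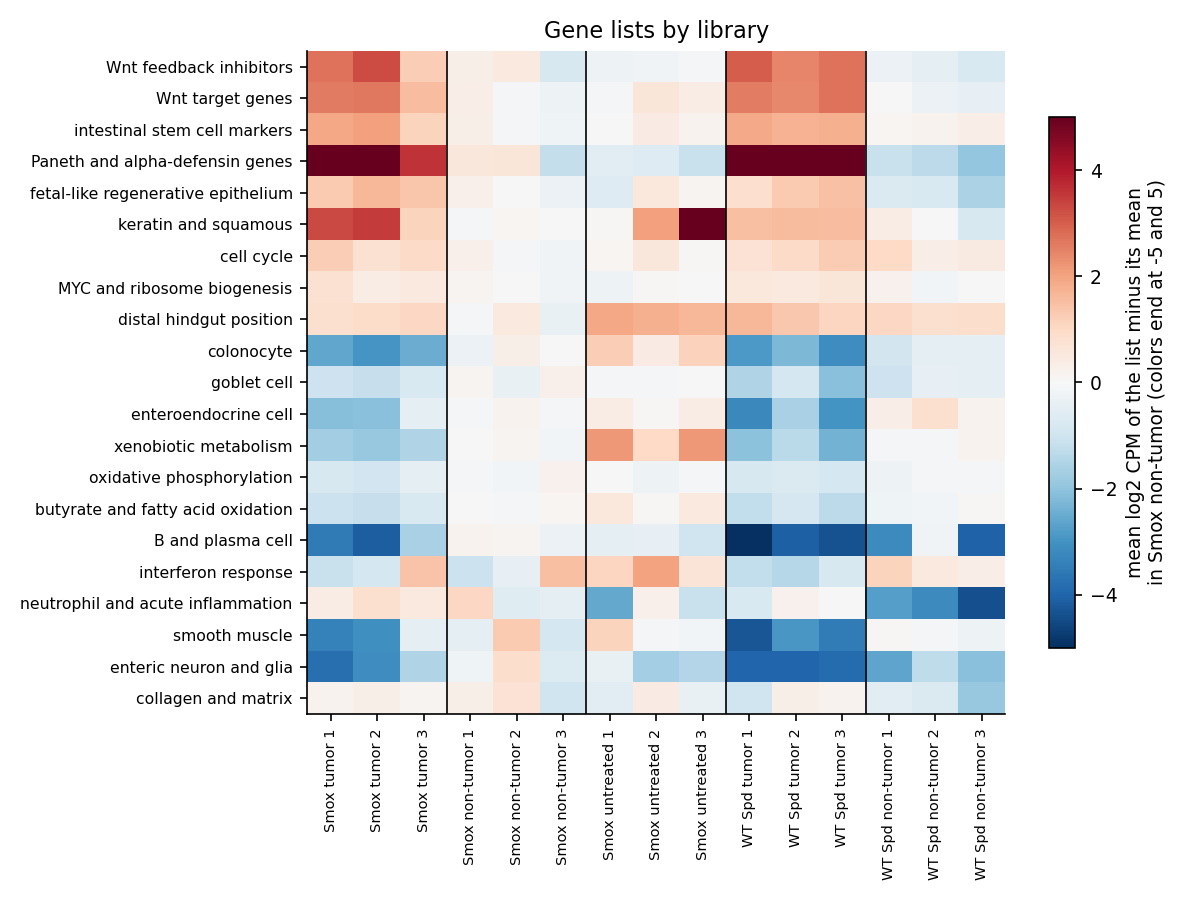
Mean log2 CPM of 21 gene lists in 15 libraries, as the difference from the mean of the 3 Smox non-tumor libraries (red higher, blue lower, colors ending at -5 and 5). Tumor replicate 3 is paler than tumor replicates 1 and 2 for Wnt, Paneth, squamous, smooth muscle and neuron lists and alike for colonocyte and fetal-like lists, and WT spermidine tumors are red for the Wnt, stem cell and Paneth lists and blue for the colonocyte list.

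The WT spermidine groups were the other pair of tumor and non-tumor tissue. The difference between the 2 tumor effects (Smox tumor minus non-tumor, less WT spermidine tumor minus non-tumor) was tested in the same model. Genotype label and spermidine differ together between the pairs and cannot be told apart. Of 19558 genes 2 were called (0.0102%), beside 2282 with p below 0.05 before adjustment. DESeq2 found 240. A model of the 4 groups alone called 132, one without the 2 libraries of other groups that stand apart 21, and leaving out 1 library gave 0 to 36, the most without WT spermidine tumor replicate 2.

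In both called genes the non-tumor libraries of the 2 pairs did not overlap. The tumor libraries of the 2 pairs overlapped in Cps1 and not in Insm1, and tumors were not tested against tumors. Cps1 (chr1:67123026-67231259), carbamoyl-phosphate synthetase, the first enzyme of the urea cycle, was at 21.8, 9.68 and 15.1 CPM in Smox tumors and 0.629, 0.501 and 0.862 CPM in Smox non-tumor colon, a rise (log2 fold change 4.55 ± 0.80, adjusted p = 0.00329). In WT spermidine mice it was at 2.27, 10.9 and 1.14 CPM in tumors and 25.3, 25.1 and 36.8 CPM in non-tumor colon, a fall (log2 fold change -2.61, adjusted p = 0.00788). The difference of the log2 fold changes was 7.16 ± 1.06 (adjusted p = 0.0155). Untreated Smox colon held 21.9, 32.0 and 32.8 CPM, so the non-tumor libraries labelled Smox stood below both.

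Insm1 (chr2:146221921-146225020), a zinc finger factor of enteroendocrine cells, was at 1.95, 3.16 and 3.79 CPM in Smox tumors and 2.80, 2.33 and 2.33 CPM in Smox non-tumor colon, with no call (adjusted p = 0.715). In WT spermidine mice it fell from 21.1, 13.4 and 9.91 CPM in non-tumor colon to 0.444, 1.65 and 0.737 CPM in tumors (log2 fold change -3.97, adjusted p = 0.000157), a difference of 4.22 ± 0.67 (adjusted p = 0.0192). Untreated Smox colon held 3.11, 3.97 and 4.03 CPM, near both Smox groups. Without Smox non-tumor replicate 1, 2 or 3 the adjusted p of both genes rose to 0.0792, 0.0729 and 0.0756. Without WT spermidine tumor replicate 1 it was 0.0538 for both, and without replicate 3 it was 0.0516 for Cps1 and 0.0965 for Insm1. The call of Insm1 was also lost without Smox tumor replicate 3 (0.0791) and without WT spermidine non-tumor replicate 1 (0.0995).

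**Figure D5:**
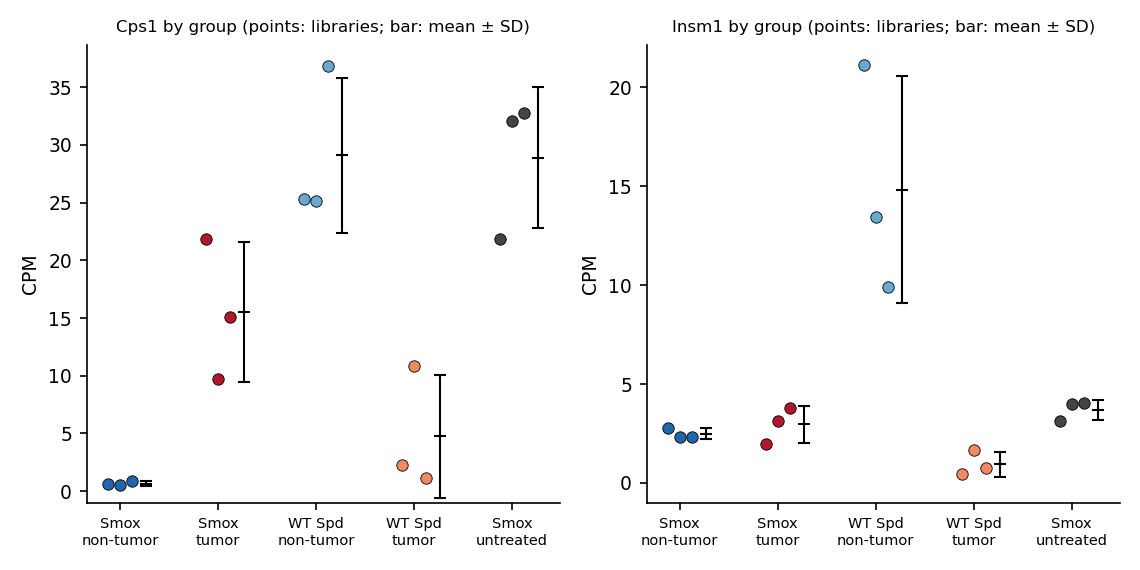
CPM of Cps1 (left) and Insm1 (right) by group, with a point for each library and a bar for the mean and SD (n = 3). Cps1 is near 0 in every library of Smox non-tumor colon and also low in some WT spermidine tumors. Insm1 is high in WT spermidine non-tumor colon alone.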

How the data were processed

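Whole-tissue colon RNA was extracted with RNeasy Mini kits, made into strand-marking libraries (NEBNext Ultra II Directional) and sequenced on a NovaSeq6000, per the labels' protocols. The authors deposited estimated counts per gene for 31023 genes in 30 libraries, and the submitters' processing notes name fastp, Salmon, DESeq2 and GRCm38, without versions. Salmon shares reads among similar transcripts, so near-identical genes can exchange counts. The deposited counts are whole numbers and were used as they are. Symbols came from the file for 20430 genes and from GENCODE M21 for 10546.

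Samples were grouped by their titles. edgeR 4.0.16 (R 4.3.3) was run on all 30 libraries in 10 groups, which share 1 estimate of the spread with 20 residual degrees of freedom, with TMM scaling, removal of 11465 genes by filterByExpr (minimum count 10, total 15) and robust quasi-likelihood tests. CPM were scaled by TMM, and log2 CPM used a prior count of 2. Adjusted p-values are Benjamini-Hochberg values over all 19558 genes tested, called at 0.05. Replicate numbers follow the order of the samples and only name them. The labels give 3 mice per group without tying each sample to a mouse, so p-values measure the spread between these samples. Total counts ran from 33060607 to 81011304 per library. Other settings tried were a run of DESeq2 1.42.0, scaling by RLE, an unfiltered table or one filtered at 1 CPM in 3 libraries, the compared groups alone, the fit without 2 libraries that stand apart and leaving out each library. The procedure was tested on simulated data. Promoter sequences are from RefSeq (GRCm38.p6), and the alpha-defensin search was added after their values were seen.

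The comparison, the 48 gene lists and the rule for named genes were chosen with earlier results of these data known. The rule took Smox, the 12 largest called rises and 12 largest falls whose higher group averaged 2 CPM or more, whose lower group held 3 counts or more and whose groups were separate (leaving out predicted, immunoglobulin, T cell receptor, mitochondrial, pseudogene and sex-linked marker genes), up to 6 called members with the largest change and 3 of the highest level per list, a fixed set of Wnt, polyamine, differentiation and inflammation genes, the called interaction genes, and the 8 genes most like Notum. Cell type markers named beside them came from a fixed marker list. Some genes that the rule took are not reported here.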

Additional observations from a re-analysis of the deposited data

Results flagged for a closer look

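The tumor effect on Cps1 differed between the pair labelled Smox and the WT spermidine pair by a log2 value of 7.16 ± 1.06 (adjusted p = 0.0155, edgeR's quasi-likelihood test of the interaction), with a rise in 3 of 3 Smox tumors and lower levels in 3 of 3 WT spermidine tumors. For Insm1 the same difference was 4.22 ± 0.67 (adjusted p = 0.0192), with no call in the Smox pair and a fall in 3 of 3 WT spermidine tumors. For Cps1 the Smox non-tumor libraries stood below untreated Smox colon and below WT spermidine non-tumor colon, while tumor libraries of the pairs overlapped. For Insm1 the WT spermidine non-tumor libraries stood above the other groups shown. Genotype label and spermidine differ together between these pairs, and their parts cannot be told apart.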

How the results depend on the processing

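Of 157 genes with values in the text, 132 were called, and none of the called genes changed direction under any alternative run. Of these, 105 were called under each of the 6 alternatives in tool, scaling, filter or libraries modelled that gave them an adjusted p. Of the 105, 62 were also called when each library of the comparison was left out in turn. DESeq2 gave no adjusted p for Wnt3, and a few of the 157 genes were not tested with the 6 libraries modelled alone. A gene without an adjusted p in a run was not counted as lost there. Without tumor replicate 1 there were 77 of the 132 called, without tumor replicate 2 there were 67 and without tumor replicate 3 there were 131. For the comparison of tumor with non-tumor colon the 6 libraries modelled alone called 3087 genes in place of 4820, and leaving out 1 library gave 990 to 6117. Called members of the gene lists numbered 401, and 118 to 481 with 1 library left out. For the difference between the tumor effects DESeq2 called 240 genes, the 4 groups alone 132 and the fit without 2 libraries that stand apart 21 in place of 2, and leaving out 1 library gave 0 to 36. The cause of these differences in count was not tested. RLE in place of TMM scaling moved the median log2 fold change of all genes by -0.03. No paired analysis was possible because the labels carry no replicate numbers and do not tie a tumor to a non-tumor sample of the same mouse.

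Uncalled genes changed sign. For Il1b the log2 fold change was -0.0169 under DESeq2, -0.0171 under RLE scaling, -0.00961 with a filter of 1 CPM in 3 libraries and -0.00286 without the 2 libraries that stand apart, and for Odc1 it was 0.00905 without a filter and 0.00727 with the 6 libraries alone. With 1 library left out it ranged from -0.60 to 0.76 for Il1b, from -0.14 to 0.24 for Odc1, from -0.0198 to 0.15 for Apc, from -3.04 to 2.22 for Cd74, from -0.28 to 0.066 for Epcam, from -0.20 to 3.79 for Il11, from -0.88 to 0.35 for Ly6a, from -1.32 to 2.35 for Ptgs2 and from -0.18 to 1.35 for S100a8. Depth limits mainly the genes under 1 CPM, since every library of the comparison held at least 50706102 counts.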
